A study of Mus musculus with 12 samples.

Results

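The genes described here encode the Sm and LSm proteins, their assembly factors and the proteins of the U1, U2, U4/U6/U5 and minor spliceosomes. They were taken by symbol from a list of 49 gene names, and all 49 symbols matched an Ensembl gene among the 55335 gene rows of the count tables. All 49 also passed the filter on low counts that left 16597 genes for testing.

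Introns are removed by the spliceosome, which is built from small nuclear ribonucleoprotein particles (snRNPs), each a small nuclear RNA with its proteins. The Sm proteins form a ring on the RNAs of U1, U2, U4 and U5. The methylosome, made of Prmt5, Wdr77 and Clns1a, prepares the Sm proteins and the SMN complex then places them on the RNA. The related LSm proteins form a nuclear ring on U6 and a cytoplasmic ring that acts in mRNA decay, and Lsm10 and Lsm11 belong to the ring of U7, which processes histone mRNA ends. A rare class of introns is removed by a minor spliceosome with its own U11 and U12 particles.

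The cultures were fibroadipogenic progenitors (FAPs), the mesenchymal progenitors of skeletal muscle, sorted from mouse limb muscle as Lin-, Vcam-, Sca1+ cells and grown in medium with 20% fetal bovine serum. The series asked which genes lie downstream of Bap1, a nuclear deubiquitinase, and of SMN in these cells. The 4 groups had 3 RNA-seq libraries each. Smn1OE_K186R cells had Bap1 deleted with 1 µM 4-hydroxytamoxifen (4-OHT) and were given a vector for human SMN carrying the K186R change. Smn1OE cells had the same deletion and treatment and were given a vector for human SMN without that change. Bap1KO cells had the deletion and 4-OHT with no vector, and WT cells received ethanol. The labels name Prrx1Cre;Bap1f/f mice as the source of the 3 Bap1-deleted groups, while the treatment text names Rosa-CreER, so which Cre acted in the cultures cannot be told from the labels. No group had an empty vector, a vector without Bap1 deletion, or 4-OHT without deletion, and ages and animals per library were not given in the labels. The labels do not say that replicates came from separate animals, so the p-values below measure the spread between these libraries.

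The libraries held 51198342 to 68216089 counts in genes. Per the labels, each of 3 culture media batches held 1 Bap1KO and 1 WT library, and each of 3 other batches held 1 library of each SMN vector group. Every comparison of an SMN vector group with Bap1KO or WT is therefore also a comparison between media batches. These groups also differed in sex-linked expression. Xist averaged 0.0425 ± 0.061 CPM (counts scaled to library size) in Smn1OE_K186R and 0.0163 ± 0.0023 CPM in Smn1OE libraries, against 252 ± 54 CPM in Bap1KO and 228 ± 32.6 CPM in WT libraries (SD, n = 3 each). The effects of vector, batch and sex-linked expression cannot be told apart. Bap1 had 42.3, 39.3 and 39.4 CPM in Bap1KO libraries, against 49.7, 49.7 and 52.0 CPM in WT libraries (log2 fold change -0.32 ± 0.07, SE; adjusted p = 0.0139, and not called in 3 of the 6 fits that left out a library), and read counts over the whole gene do not show how much of the deleted part remained. Smn1 had 3688 to 5593 CPM in the 6 SMN vector libraries and 30.5 to 35.1 CPM in the others. The constructs were human, so these counts hold reads that aligned to the mouse gene.

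All 12 fibroblast and FAP markers were detected, with summed levels of 9230 to 9870 CPM in Smn1OE_K186R, 8000 to 9830 CPM in Smn1OE, 14600 to 20300 CPM in Bap1KO and 19800 to 25700 CPM in WT libraries. Col1a1, Vim and Col3a1 held most of these counts (5561247, 3353645 and 1352107 over the 12 libraries). Lum and Pi16 held the fewest (1791 and 993). The myogenic markers Pax7, Myf5, Myod1 and Myog averaged under 0.1 CPM in every group, as did the macrophage marker Adgre1 and the T cell marker Cd3e. Csf1r and Cd68, macrophage markers of the same list as Adgre1, were detected. They had 8450 and 5169 counts over the 12 libraries, beside 3 for Adgre1. The endothelial, Schwann, haematopoietic, pericyte and myogenic lists summed to at most 6.39, 14, 27.2, 133 and 180 CPM in any library. Vcam1 held most of the counts of the myogenic list (89208 over the 12 libraries, with Des next at 1751). The 12 proliferation markers summed to 390 to 557 CPM in Smn1OE_K186R, 375 to 523 CPM in Smn1OE, 631 to 817 CPM in Bap1KO and 841 to 1070 CPM in WT libraries. In bulk RNA, fewer cells of a type and less RNA per cell cannot be told apart, and the part that proliferation or the sum of FAP markers plays in the results below was not tested.

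Promoter sequences of these genes were also looked up. Whether any motif bears on the changes described below was not tested. RefSeq promoters (250 bases before to 50 after the start, build GRCm38.p6, whereas the counts were made on GRCm39) matched 43 of the 49 genes. Short motifs were searched on both strands with exact letters: the ETS motif CCGGAAG, the NRF1 motif GCGCATGC, the YY1 motif AAGATGGCG and the E-box CACGTG. The ETS motif was in 18 of the 43 genes' promoters. Counted per promoter, since a gene can have several, it was in 38.0% of these genes' 50 promoters, in 15.7% of 14870 promoters of tested genes and in 8.9% of all 32851 promoters. The NRF1 motif was in 10.0%, 4.6% and 2.7% of the same sets, the YY1 motif in 6.0%, 2.6% and 1.4%, and the E-box in 12%, 9.5% and 7.2%. A match describes the letters and is not a bound site. The promoters of the 4 genes that the comparisons below turn on most, Rnpc3 (chr3:113630100-113630399, minus strand), Snrnp200 (chr2:127208136-127208435, plus strand), Lsm5 (chr6:56704650-56704949, minus strand) and Snrnp25 (chr11:32205165-32205464, plus strand), are given 5′ to 3′ on the gene's strand, with matches to any of the motifs in capitals. In Rnpc3 and Snrnp200 the capitals are the ETS letters as spelled, in Lsm5 they are its reverse complement, and Snrnp25 had none.
Rnpc3: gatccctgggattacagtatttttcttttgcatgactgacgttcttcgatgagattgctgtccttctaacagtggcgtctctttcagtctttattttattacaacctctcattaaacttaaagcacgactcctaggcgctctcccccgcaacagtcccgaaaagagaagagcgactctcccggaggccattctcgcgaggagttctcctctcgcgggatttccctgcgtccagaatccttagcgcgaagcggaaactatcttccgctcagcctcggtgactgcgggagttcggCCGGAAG
Snrnp200: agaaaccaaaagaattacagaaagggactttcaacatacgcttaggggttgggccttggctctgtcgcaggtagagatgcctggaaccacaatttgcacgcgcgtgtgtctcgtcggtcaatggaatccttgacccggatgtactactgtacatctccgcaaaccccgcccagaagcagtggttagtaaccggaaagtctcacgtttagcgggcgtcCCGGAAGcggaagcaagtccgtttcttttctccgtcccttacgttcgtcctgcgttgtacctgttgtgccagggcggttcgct
Lsm5: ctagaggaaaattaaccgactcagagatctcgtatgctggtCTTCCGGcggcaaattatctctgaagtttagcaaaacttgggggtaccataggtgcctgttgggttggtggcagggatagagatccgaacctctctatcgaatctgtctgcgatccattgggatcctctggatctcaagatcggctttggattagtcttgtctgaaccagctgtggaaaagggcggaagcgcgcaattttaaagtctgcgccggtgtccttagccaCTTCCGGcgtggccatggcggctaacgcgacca
Snrnp25: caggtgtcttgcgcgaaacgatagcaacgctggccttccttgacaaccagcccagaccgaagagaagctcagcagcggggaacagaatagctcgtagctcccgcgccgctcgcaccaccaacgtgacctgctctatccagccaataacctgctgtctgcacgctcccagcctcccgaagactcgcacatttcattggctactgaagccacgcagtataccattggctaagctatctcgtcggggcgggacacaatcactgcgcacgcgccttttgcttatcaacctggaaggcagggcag

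All 49 genes were expressed, and most varied little between libraries. Mean levels per length, in RPKM (CPM divided by exon length in kilobases) over the 12 libraries, ran from 2.21 for Lsm11 to 104 for Snrpb, the Sm B protein. By role, the Sm ring genes had 28.7 to 104 RPKM, the U1 and U2 genes 10.8 to 38.5 RPKM, the U6 and cytoplasmic LSm genes 5.49 to 46.2 RPKM, the U4/U6 and U5 genes 4.57 to 31.2 RPKM and the minor spliceosome genes 2.77 to 23.6 RPKM. Rnpc3, which bridges the U11 and U12 particles, was the lowest of the minor spliceosome genes at 2.77 RPKM, and Zcrb1 was the highest. Across the 12 libraries, the highest CPM of a gene was under 1.5 times its lowest for 27 genes and from 1.5 to 2 times for 18. The other 4 were Snrnp25 (2.74 times), Lsm5 (2.45 times), Rnpc3 (2.38 times) and Zmat5 (2.28 times), of which Snrnp25, Rnpc3 and Zmat5 encode U11/U12 proteins. The smallest ratio was 1.15 for Sf3a1, a subunit of the U2 factor SF3A.

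**Figure D1:**
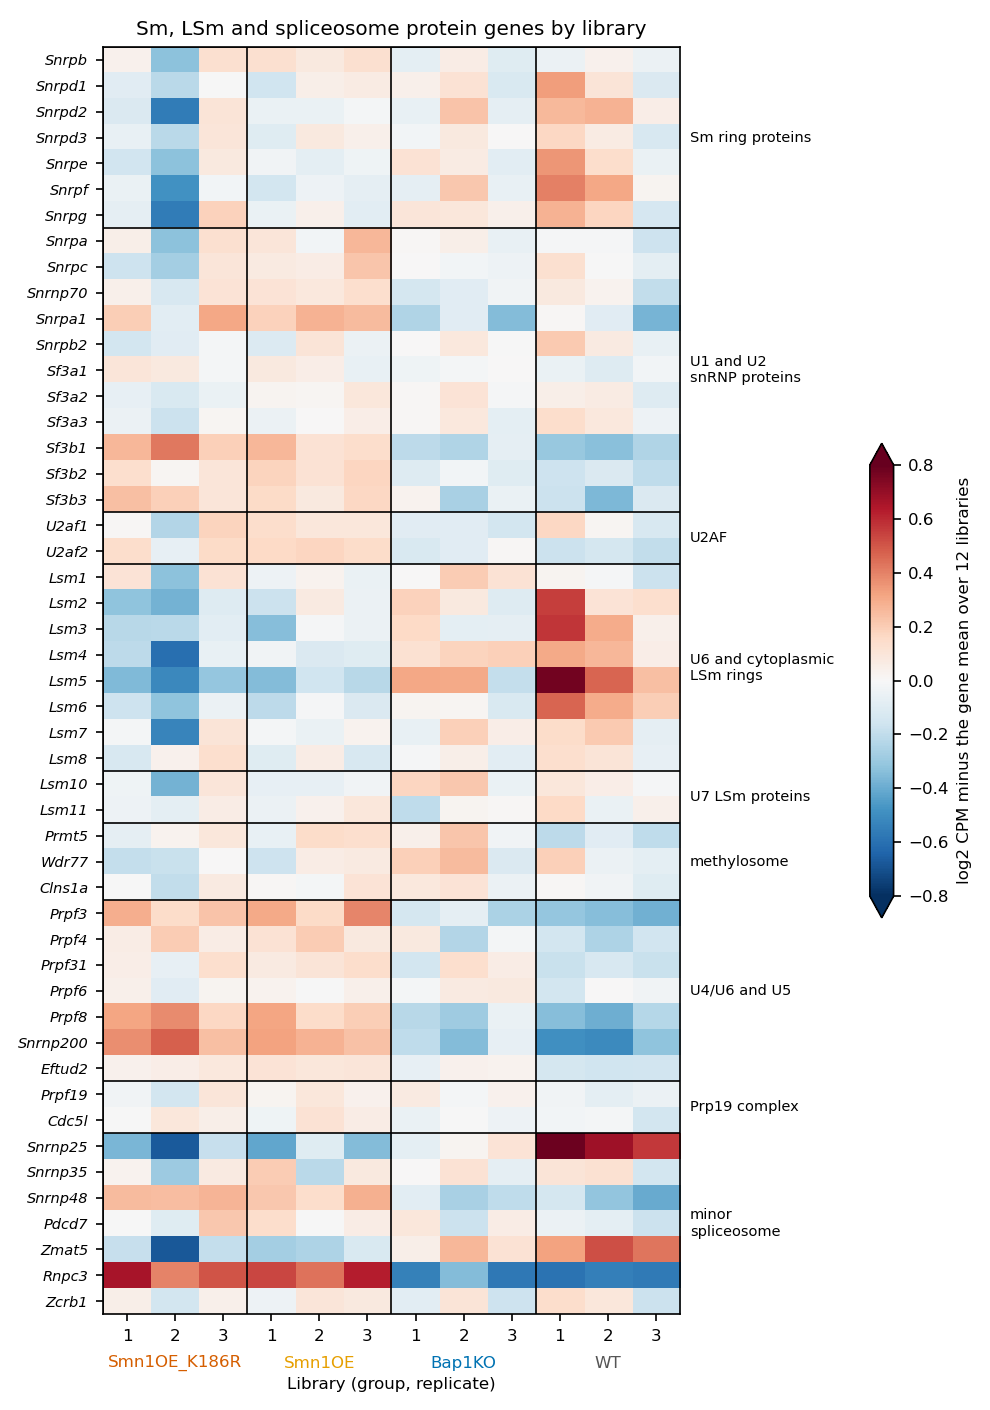
Expression of the 49 genes in the 12 libraries as log2 CPM minus each gene's mean over all libraries, with genes grouped by role and libraries by group. Rnpc3 is high in the 6 SMN vector libraries, Snrnp25 is high in the 3 WT libraries, and the Sm ring and LSm genes of Smn1OE_K186R replicate 2 have the lowest sums (509.8 and 171.4 CPM).

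Smn1OE_K186R replicate 2 stood apart within its group. The 7 Sm ring genes summed to 628.6, 509.8 and 691.9 CPM in Smn1OE_K186R replicates 1, 2 and 3, against 642.8 to 668.0 CPM in Smn1OE, 621.8 to 703.1 CPM in Bap1KO and 627.5 to 744.4 CPM in WT libraries. Its Sm ring sum was the lowest of the 12. It was also the farthest from the others by transcript length over all genes: relative to each gene's mean, its median was -0.42 (log2) for genes with transcripts under 1 kb and 0.26 for those over 4.5 kb, where the other 11 libraries lay between -0.11 and 0.25 and between -0.13 and 0.08.

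Bap1KO cells differed from WT cells in few of these genes. A gene is called here at an adjusted p under 0.05 in edgeR's quasi-likelihood test with Benjamini-Hochberg adjustment over all tested genes. Against WT, Snrnp25, a U11 protein of the minor spliceosome, and Lsm6, a subunit of the LSm rings, were lower in Bap1KO cells, and no gene of the list was higher. Snrnp25 had 12.5, 13.4 and 14.3 CPM in Bap1KO libraries, against 22.8, 21.1 and 19.6 CPM in WT libraries (log2 fold change -0.66 ± 0.13, SE; adjusted p = 0.0114). Each Bap1KO library was below every WT library. Lsm6 had 28.8, 28.7 and 26.0 CPM in Bap1KO libraries, against 39.1, 34.8 and 32.5 CPM in WT libraries (-0.35 ± 0.10, adjusted p = 0.0434), and these groups did not overlap either. The 2 called genes were 4.08% of the 49, where 9.72% of all tested genes were called (3.36% higher and 6.37% lower). An unadjusted p under 0.05 was reached by 9 of the 49 genes and by 26.2% of all genes. The groups did not overlap for 9 of the 49, 6 higher and 3 lower in Bap1KO (18.4%, beside 32.3% of all genes). The median log2 fold change was -0.013 for the 49 genes and 0.0004 for all tested genes. Snrnp25 was not called without WT replicate 1 (adjusted p = 0.0504), and Lsm6 was called in none of the 6 fits that left out a library, with adjusted p up to 0.172.

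Because Bap1KO and WT libraries shared media batches, the batch could be taken out, and 8 genes were then called, 3 higher and 5 lower (16.3%, where 29.0% of all genes were called). The 3 higher in Bap1KO were Prmt5, the arginine methyltransferase of the methylosome (0.24 ± 0.06, adjusted p = 0.00582), Snrnp200, the helicase that unwinds U4 from U6 (0.24, adjusted p = 0.0096), and Prpf3, a U4/U6 protein (0.19, adjusted p = 0.0467). The 5 lower were Snrnp25 (-0.66, adjusted p = 0.00171), Lsm6 (-0.35, adjusted p = 0.00645), Lsm5 (-0.35, adjusted p = 0.0150), Lsm3 (-0.30, adjusted p = 0.0256) and the U11/U12 gene Zmat5 (-0.28, adjusted p = 0.0479). Prmt5 had 102, 116 and 97.4 CPM in Bap1KO libraries, against 86.0, 93.1 and 86.2 CPM in WT libraries. Snrnp200 had 105, 94.97 and 115 CPM in Bap1KO libraries, against 85.7, 84.8 and 96.6 CPM in WT libraries. Prmt5 did not overlap between the groups, while the lowest Snrnp200 value of Bap1KO was below the highest of WT. Lsm5 had 15.8, 15.7 and 11.2 CPM in Bap1KO libraries, against 21.8, 17.6 and 15.1 CPM in WT libraries. The Lsm5 groups overlapped, but each Bap1KO library was below the WT library of its own media batch. Zmat5 had 14.3, 16.6 and 14.99 CPM in Bap1KO libraries, against 17.3, 19.8 and 18.6 CPM in WT libraries, with no overlap.

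In the other roles no gene was called in Bap1KO against WT by either fit, and the gene that moved most in each is given here. Among the Sm ring genes it was Snrpf, with 62.0, 75.6 and 62.3 CPM in Bap1KO libraries, against 85.9, 80.4 and 66.1 CPM in WT libraries (-0.22 ± 0.13, adjusted p = 0.3185). Among the U1 and U2 genes it was Sf3b3, an SF3B subunit whose gene overlaps Cog4 on the other strand, with 169, 139 and 160.2 CPM in Bap1KO libraries, against 147, 129.5 and 154 CPM in WT libraries (0.12 ± 0.09, adjusted p = 0.423). U2af1, which reads the AG at the end of the intron, had 82.8, 83.1 and 79.9 CPM in Bap1KO libraries, against 99.1, 89.1 and 80.8 CPM in WT libraries (-0.13 ± 0.10, adjusted p = 0.448). These groups overlapped in all 3 genes. The U7 gene Lsm11 had 12.4, 14.4 and 14.3 CPM in Bap1KO libraries, against 15.9, 13.7 and 14.7 CPM in WT libraries (-0.11 ± 0.10), and the ubiquitin ligase gene Prpf19 had 156, 146 and 151 CPM in Bap1KO libraries, against 145, 140.2 and 143 CPM in WT libraries (0.08 ± 0.07). The 47 genes not called without the batch term ranged from -0.35 (Lsm5) to 0.25 (Prmt5), and the 95% intervals of all 49 genes lay between -0.95 and 0.43.

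**Figure D2:**
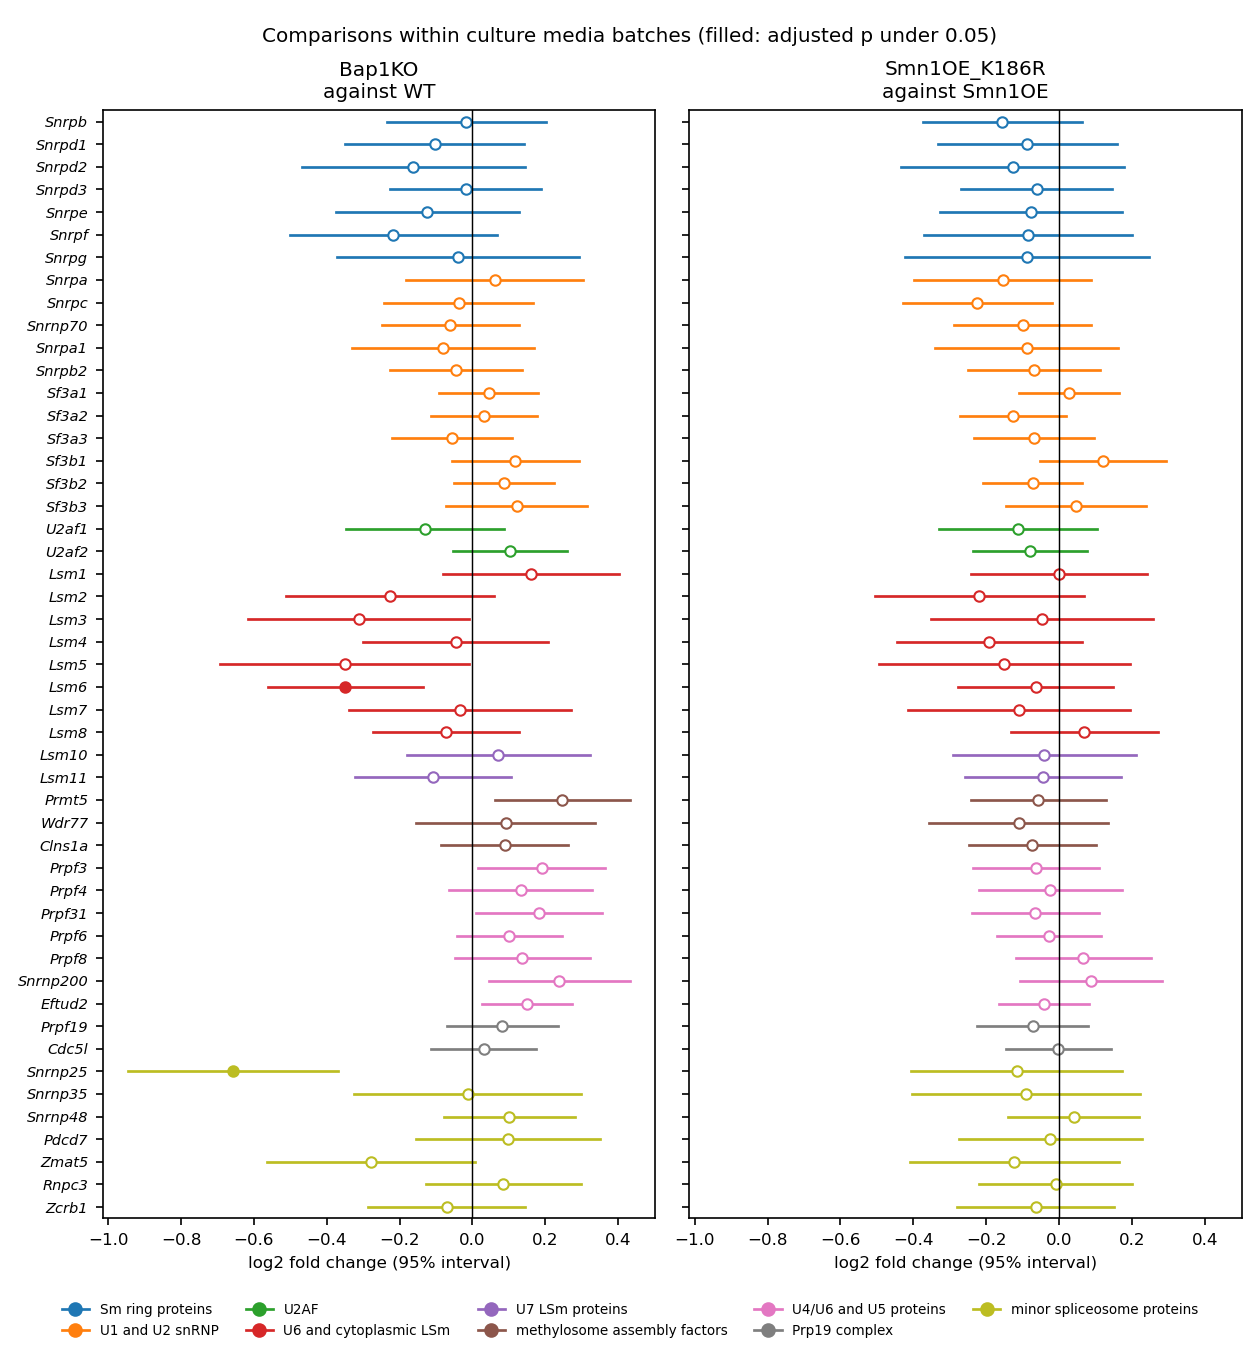
Log2 fold changes of the 49 genes with 95% intervals for Bap1KO against WT (left) and Smn1OE_K186R against Smn1OE (right), coloured by role, with filled points where the adjusted p was under 0.05. Snrnp25 and Lsm6 are filled on the left, no point is filled on the right, and the U4/U6 and U5 points on the left lie between 0.10 and 0.24.

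No difference between the SMN vector groups was detectable in any of these genes. In Smn1OE_K186R against Smn1OE, which shared media batches, 0 of the 49 genes and 0% of all tested genes were called by edgeR, with a smallest adjusted p of 0.997 among the 49. DESeq2 called 0 as well, and 1 of the 49 had an unadjusted p under 0.05, as did 2.34% of all genes. That gene was Snrpc, a U1 protein that helps U1 hold the start of the intron, with 62.5, 57.9 and 74.9 CPM in Smn1OE_K186R libraries, against 73.4, 73.0 and 81.5 CPM in Smn1OE libraries (-0.22 ± 0.09). The groups did not overlap for 2 of the 49, both lower (Sf3a2 at -0.13 and Eftud2 at -0.04; 4.08%, beside 6.78% of all genes). With the batch taken out, 0 of the 49 and 0.289% of all genes were called. The log2 fold changes ran from -0.22 to 0.12 and the 95% intervals from -0.51 to 0.29. Each interval is for a single gene in the fit without the batch term, so they do not bound all 49 genes jointly. Of the 49 genes, 41 had negative values, with a median of -0.069 beside 0.0052 for all genes. The median of the 49 was -0.0041 without Smn1OE_K186R replicate 2 and -0.1335 without Smn1OE_K186R replicate 3.

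Some U5, U2 and minor spliceosome genes differed between the SMN vector groups and Bap1KO cells, with Rnpc3 the farthest. In Smn1OE_K186R against Bap1KO, 12 of the 49 genes were called, 8 higher and 4 lower (24.5%, where 32.6% of all genes were called). In Smn1OE against Bap1KO, 9 were called, all higher (18.4%, where 33.5% of all genes were called). Among all genes, 16.1% were called higher and 16.5% lower in Smn1OE_K186R, and 15.8% higher and 17.7% lower in Smn1OE. With only Smn1OE and Bap1KO fitted, the calls in Smn1OE were 11 higher and 2 lower. Without Bap1KO replicate 3 they were 8 higher and 1 lower. An unadjusted p under 0.05 was reached by 14 of the 49 in either comparison, and by 44.0% of all genes in Smn1OE_K186R and 44.7% in Smn1OE. The groups did not overlap for 17 genes in Smn1OE_K186R, 10 higher and 7 lower (34.7%, beside 43.7% of all genes), and for 18 in Smn1OE, 15 higher and 3 lower (36.7%, beside 48.6%). With media batch as a random effect, 11 and 9 of the 49 were called, beside 33.0% and 33.2% of all genes. With libraries scaled by total counts, the split in Smn1OE_K186R was 10 higher and 3 lower. The medians of the 49 were -0.055 for Smn1OE_K186R and 0.014 for Smn1OE, beside -0.0058 and -0.0094 for all genes. Without Smn1OE_K186R replicate 2 the median of the 49 in Smn1OE_K186R was 0.0020, and without Smn1OE_K186R replicate 3 it was -0.1151. By role, 3 of 11 U1 and U2 genes and 3 of 7 U4/U6 and U5 genes were called in each comparison, all higher, and of the 7 minor spliceosome genes 2 were higher and 2 lower in Smn1OE_K186R and 2 were higher in Smn1OE. Both comparisons use the same 3 Bap1KO libraries, so their values are given side by side without counting either as support for the other. The 7 genes called higher in both were Rnpc3, Snrnp48, Snrnp200, Prpf8, Prpf3, Sf3b1 and Snrpa1.

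Rnpc3 changed most. It had 27.1, 22.7 and 24.4 CPM in Smn1OE_K186R and 24.9, 23.2 and 26.5 CPM in Smn1OE libraries, against 11.8, 13.5 and 11.5 CPM in Bap1KO and 11.4, 11.8 and 11.6 CPM in WT libraries. All 6 SMN vector libraries were above all 6 others, with no value between 13.5 and 22.7 CPM. Its log2 fold change against Bap1KO was 1.01 ± 0.10 in Smn1OE_K186R (adjusted p = 0.000139) and 1.02 ± 0.10 in Smn1OE (adjusted p = 9.7e-05), and it was the only gene of the list at or above 2-fold there. Snrnp48, another U11 protein gene, had 38.5, 38.3 and 39.0 CPM in Smn1OE_K186R and 37.5, 35.7 and 39.4 CPM in Smn1OE libraries, against 30.5, 26.9 and 28.0 CPM in Bap1KO libraries. Its log2 fold changes were 0.44 ± 0.08 and 0.40 ± 0.08 (adjusted p = 0.00286 for Smn1OE_K186R and 0.0041 for Smn1OE), with no overlap. The remaining U11/U12 genes did not follow Rnpc3. Zmat5 averaged 10.998 ± 2.03 CPM in Smn1OE_K186R, against 15.3 ± 1.19 CPM in Bap1KO (-0.48 ± 0.13, adjusted p = 0.0167), and Snrnp25 averaged 10.1 ± 1.67 CPM, against 13.4 ± 0.86 CPM (-0.42 ± 0.13, adjusted p = 0.0318; SD, n = 3 each). In Smn1OE the same genes averaged 11.97 ± 0.68 and 10.9 ± 1.29 CPM and were not called. Pdcd7, Snrnp35 and Zcrb1 were called in neither group.

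The U5 genes Snrnp200 and Prpf8 were higher with either vector. Snrnp200 had 156, 168 and 143 CPM in Smn1OE_K186R and 151, 146 and 142 CPM in Smn1OE libraries, against 105, 94.97 and 115 CPM in Bap1KO libraries. Its log2 fold changes were 0.57 ± 0.09 (adjusted p = 0.00125) and 0.48 ± 0.09 (adjusted p = 0.00243). Prpf8, which forms the centre of the spliceosome's active site, had 286, 297 and 257 CPM in Smn1OE_K186R and 285, 254 and 263 CPM in Smn1OE libraries, against 197, 188 and 221 CPM in Bap1KO libraries. Neither gene overlapped between the vector libraries and Bap1KO. The Prpf8 log2 fold changes were 0.47 ± 0.09 (adjusted p = 0.00245) and 0.40 ± 0.09 (adjusted p = 0.00455). Prpf3, of the U4/U6 particle, had 44.7, 40.5 and 42.7 CPM in Smn1OE_K186R and 45.0, 40.6 and 47.9 CPM in Smn1OE libraries, against 33.1, 34.7 and 30.6 CPM in Bap1KO libraries (0.38 ± 0.08, adjusted p = 0.00481, and 0.44 ± 0.08, adjusted p = 0.00206). The third U5 gene, the GTPase Eftud2, was not called, nor were Prpf4, Prpf6 and Prpf31.

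Among the U2 genes, Sf3b1, the SF3B subunit that clasps the branch site, had 278, 309 and 263 CPM in Smn1OE_K186R and 277, 250.2 and 255 CPM in Smn1OE libraries, against 199, 195 and 219 CPM in Bap1KO libraries. The vector libraries all lay above the Bap1KO libraries (0.47 ± 0.08, adjusted p = 0.00178, and 0.35 ± 0.08, adjusted p = 0.00669). Snrpa1, a U2 snRNP protein, averaged 57.5 ± 7.75 CPM in Smn1OE_K186R and 61.2 ± 2.03 CPM in Smn1OE, against 44.4 ± 3.95 CPM in Bap1KO (SD, n = 3 each), with log2 fold changes of 0.37 ± 0.12 (adjusted p = 0.0278) and 0.46 ± 0.12 (adjusted p = 0.0103). Sf3b3 was called higher in Smn1OE_K186R (0.27 ± 0.09, adjusted p = 0.0369). Sf3b2 (0.23 ± 0.06, adjusted p = 0.0158) and U2af2, which binds the pyrimidine tract (0.23 ± 0.07, adjusted p = 0.0304), were called higher in Smn1OE. The U1 genes Snrpa, Snrpc and Snrnp70, the SF3A genes and the Prp19 complex genes were called in neither group.

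No Sm ring, U7 or methylosome gene was called against Bap1KO in either SMN vector group. Of the U6 and cytoplasmic LSm genes, 2 were lower in Smn1OE_K186R: Lsm4 averaged 39.3 ± 7.35 CPM, against 53.1 ± 1.33 CPM in Bap1KO (-0.44 ± 0.12, adjusted p = 0.0147), and Lsm5 averaged 9.73 ± 0.726 CPM, against 14.2 ± 2.64 CPM (-0.55 ± 0.16, adjusted p = 0.0204; SD, n = 3 each). In Smn1OE, Lsm4 averaged 44.8 ± 1.41 CPM (-0.24, adjusted p = 0.1247) and Lsm5 averaged 10.8 ± 0.689 CPM (-0.40, adjusted p = 0.0692). Neither gene was called between Smn1OE_K186R and Smn1OE, so the LSm calls are not shown to belong to one form of SMN. The least certain calls were those lost when a library was left out. In Smn1OE_K186R these were Lsm5 (lost without Bap1KO replicate 1 or 2 or Smn1OE_K186R replicate 2), Snrnp25 and Sf3b3 (each lost without Bap1KO replicate 2 or 3 or Smn1OE_K186R replicate 1 or 2) and Snrpa1 (lost without Bap1KO replicate 1 or 3 or Smn1OE_K186R replicate 1 or 3). In Smn1OE these were Sf3b2 (lost without replicate 1 or 3 of either group) and U2af2 (lost in 5 of the 6 fits). The adjusted p reached 0.0737 for Lsm5, 0.0967 for Snrnp25, 0.129 for Sf3b3, 0.106 for Snrpa1, 0.0723 for Sf3b2 and 0.127 for U2af2. With media batch as a random effect, Snrnp25 was not called in Smn1OE_K186R (adjusted p = 0.0572).

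**Figure D3:**
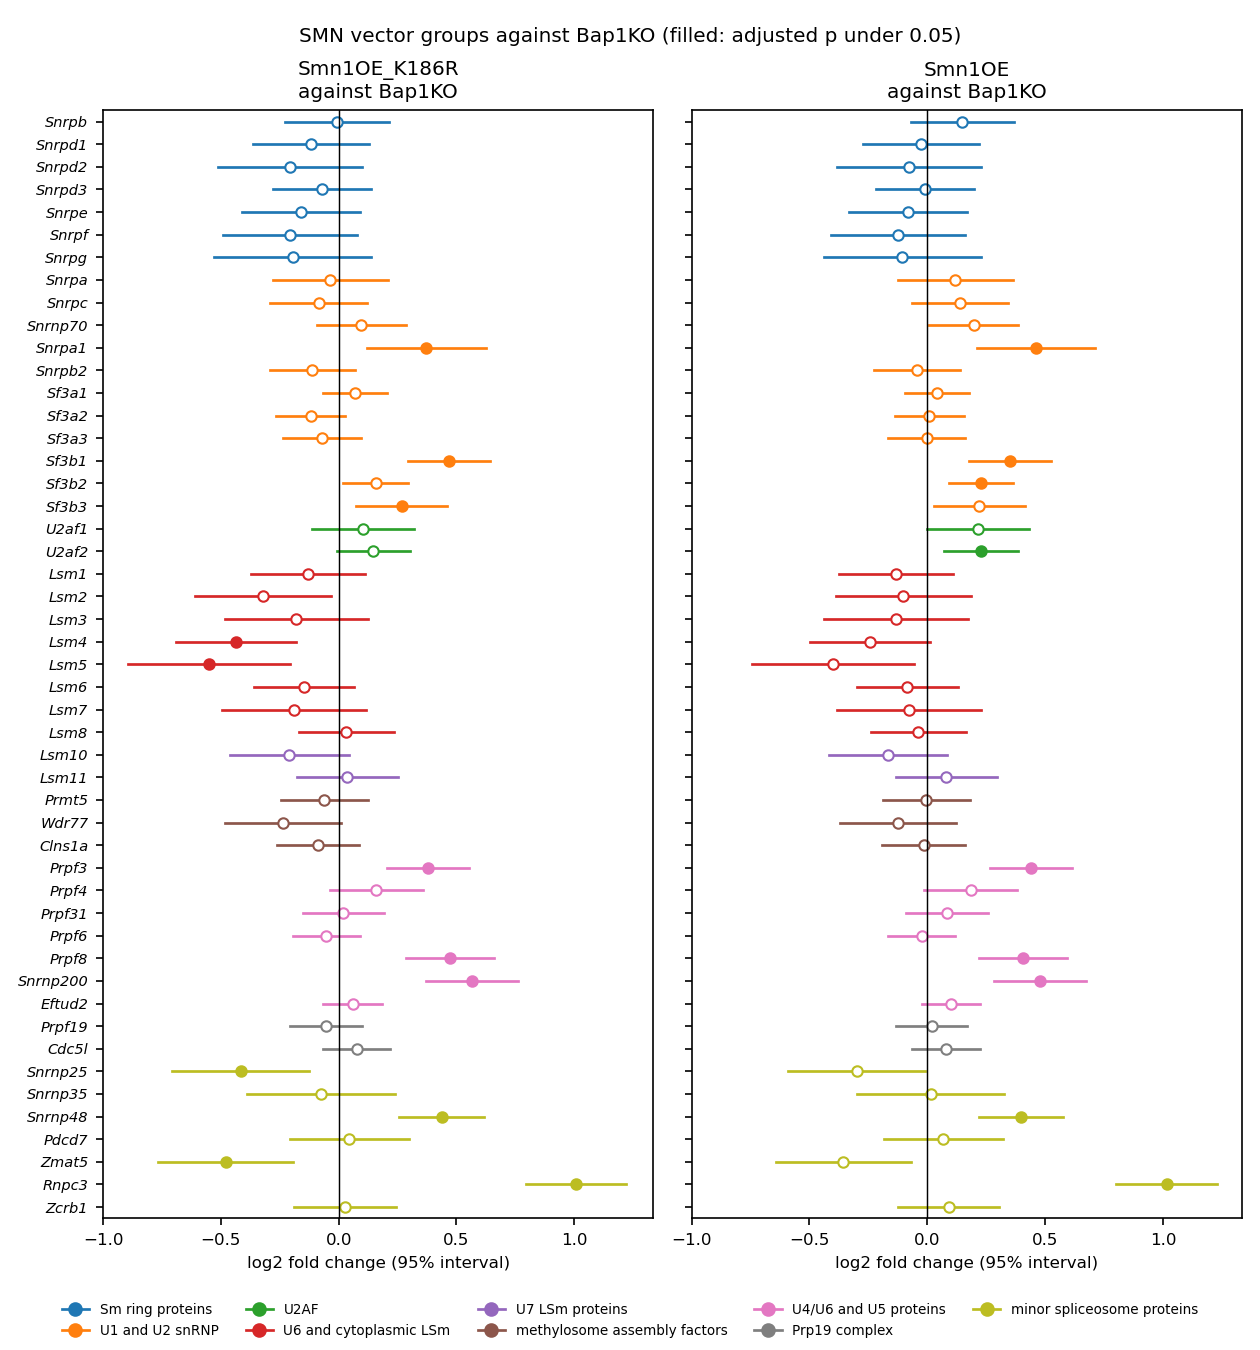
Log2 fold changes of the 49 genes with 95% intervals for Smn1OE_K186R (left) and Smn1OE (right) against the same 3 Bap1KO libraries, coloured by role, with filled points where the adjusted p was under 0.05. Rnpc3 is farthest to the right in both panels at 1.01 and 1.02, 12 points are filled on the left and 9 on the right.

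Against WT cells, which lack both the deletion and the vector, more of the genes moved, as did more genes in all. In Smn1OE_K186R 20 of the 49 were called, 11 higher and 9 lower (40.8%, where 50.5% of all genes were called). In Smn1OE 20 were called as well, 14 higher and 6 lower (40.8%, where 50.4% of all genes were called). Among all genes, 24.0% were called higher and 26.5% lower in Smn1OE_K186R, and 23.8% higher and 26.6% lower in Smn1OE. An unadjusted p under 0.05 was reached by 24 of the 49 in Smn1OE_K186R and 22 in Smn1OE, and by 56.6% of all genes in either. The groups did not overlap for 23 genes in Smn1OE_K186R, 15 higher and 8 lower (46.9%, beside 58.4% of all genes), and for 28 in Smn1OE, 18 higher and 10 lower (57.1%, beside 62.4%). With media batch as a random effect, 21 and 19 were called, beside 50.4% and 50.1% of all genes. The medians of the 49 were -0.028 and 0.073, beside -0.019 and -0.021 for all genes. That of Smn1OE_K186R was 0.0699 without Smn1OE_K186R replicate 2 and -0.1035 without Smn1OE_K186R replicate 3. With libraries scaled by total counts, the splits were 16 higher and 7 lower in Smn1OE_K186R and 19 higher and 4 lower in Smn1OE. The WT libraries are shared by the 2 comparisons.

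The genes higher than in WT were mostly those of the U2, U4/U6, U5 and minor spliceosome particles. The log2 fold changes in Smn1OE_K186R and Smn1OE were 1.09 and 1.10 for Rnpc3, 0.81 and 0.72 for Snrnp200, 0.61 and 0.54 for Prpf8, and 0.57 and 0.63 for Prpf3. They were 0.59 and 0.47 for Sf3b1, 0.54 and 0.50 for Snrnp48, 0.39 and 0.34 for Sf3b3, and 0.24 and 0.32 for Sf3b2. Snrnp200 had 85.7, 84.8 and 96.6 CPM in WT libraries, below every SMN vector library, and the largest adjusted p among these 16 values was 0.00699. U2af2 (0.25 and 0.33), Prpf4 (0.29 and 0.32) and Eftud2 (0.21 and 0.25) were called in both groups too. Prpf31 (0.27), Snrpa1 (0.38) and Prmt5 (0.24) were called in Smn1OE, with values of 0.20, 0.29 and 0.19 in Smn1OE_K186R that were not. None of these genes was called in the direct comparison of the 2 groups, so the groups are not shown to differ in them. Of the 7 U4/U6 and U5 genes, 5 were called higher in Smn1OE_K186R and 6 in Smn1OE, and none lower. Of all genes, 24.0% and 23.8% were called higher.

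The genes lower than in WT were LSm, Sm and U11/U12 genes. Snrnp25 had 10.3, 8.30 and 11.6 CPM in Smn1OE_K186R and 9.94, 12.4 and 10.4 CPM in Smn1OE libraries, against 22.8, 21.1 and 19.6 CPM in WT libraries. Its log2 fold changes were -1.07 ± 0.13 (adjusted p = 8.48e-05) and -0.96 ± 0.13 (adjusted p = 0.000156), and the Bap1KO libraries lay between these groups. Lsm5 had 9.99, 8.91 and 10.3 CPM in Smn1OE_K186R and 10.0, 11.4 and 10.9 CPM in Smn1OE libraries, against 21.8, 17.6 and 15.1 CPM in WT libraries (-0.90 ± 0.16, adjusted p = 0.000694, and -0.75 ± 0.16, adjusted p = 0.00211). Zmat5 (-0.76 and -0.63), Lsm6 (-0.50 and -0.43), Lsm3 (-0.49 and -0.44) and Snrpf (-0.43 and -0.34) were also called in both groups. Lsm2 (-0.55), Lsm4 (-0.48) and Snrpd2 (-0.37) were called in Smn1OE_K186R, with values of -0.33, -0.29 and -0.24 in Smn1OE that were not. Of the 8 U6 and cytoplasmic LSm genes, 5 were lower in Smn1OE_K186R and 3 in Smn1OE, and none was higher, beside 26.5% and 26.6% of all genes called lower. With media batch as a random effect in limma, Snrpf was not called in Smn1OE (adjusted p = 0.0673). Snrpe, another Sm ring gene, was called lower in Smn1OE_K186R by limma (-0.29, adjusted p = 0.0473, against 0.0587 in edgeR). These fits differ in method as well as in the batch term. No batch held both WT and vector libraries, so the random effect cannot separate batch from group. Among the calls against WT, those lost when a library was left out were Snrpd2, Snrpf, Lsm3, U2af2 and Prpf4 in Smn1OE_K186R and Snrpf, Prmt5, Lsm3, Snrpa1, Prpf4 and Prpf31 in Smn1OE. The most often lost was Snrpf in Smn1OE, called only without WT replicate 3 and with an adjusted p up to 0.165. Snrpd2 and Snrpf in Smn1OE_K186R were both lost without Smn1OE_K186R replicate 2, with adjusted p up to 0.14 and 0.0731.

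**Figure D4:**
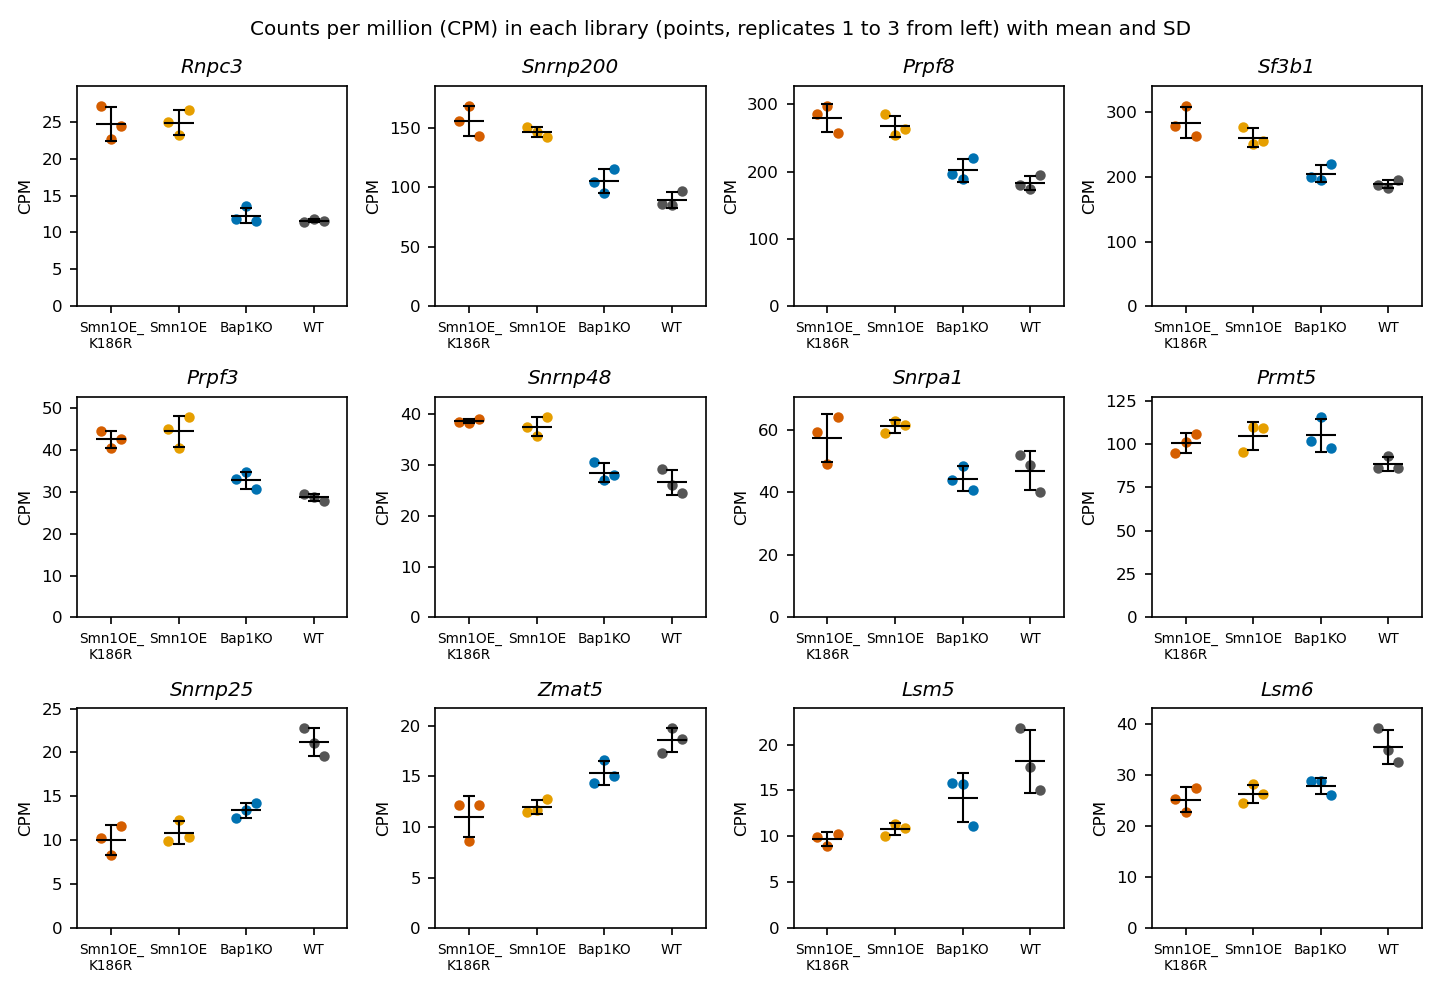
CPM of 12 of the genes in each library (points) with the mean and SD of each group (bars), on axes that start at 0. Rnpc3, Snrnp200, Prpf8, Sf3b1, Prpf3 and Snrnp48 are higher in the 6 SMN vector libraries than in Bap1KO and WT libraries, and Snrnp25, Zmat5, Lsm5 and Lsm6 have their highest group mean in WT.

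Summed over each role, the U4/U6 and U5 genes and the U1 and U2 genes were higher on average in the SMN vector groups. The LSm genes were lower. The 7 U4/U6 and U5 genes summed to 839 ± 22.8 CPM in Smn1OE_K186R, 829.8 ± 20.2 CPM in Smn1OE, 695 ± 30.8 CPM in Bap1KO and 623 ± 17.2 CPM in WT (SD, n = 3 each), and the vector libraries did not overlap with the others. The 11 U1 and U2 genes summed to 1478 ± 43.9, 1518 ± 32.0, 1323 ± 10.6 and 1293 ± 49.5 CPM in the same order of groups. Their sums did not overlap either (1427.6 to 1541.5 CPM in vector libraries, against 1242.1 to 1341.0 CPM in the others). The 8 U6 and cytoplasmic LSm genes summed to 198 ± 24.8 CPM in Smn1OE_K186R, 209.6 ± 6.69 CPM in Smn1OE, 232 ± 8.67 CPM in Bap1KO and 249.7 ± 25.3 CPM in WT. The 7 minor spliceosome genes summed to 175 ± 12.9, 179.8 ± 5.13, 159 ± 7.39 and 170.2 ± 12.9 CPM in the same order of groups, with Rnpc3 and Snrnp48 up and Snrnp25 and Zmat5 down within that sum. All 49 genes together summed to 4079 ± 209, 4215 ± 39.4, 3837 ± 57.5 and 3763 ± 154 CPM. These sums are means over libraries with no test, and genes with high CPM weigh most in them. Of the 7 U4/U6 and U5 genes, 3 (Snrnp200, Prpf8 and Prpf3) were called higher against Bap1KO in each vector group. Prpf4, Prpf6, Prpf31 and Eftud2 were not. Of all genes, 16.1% were called higher in Smn1OE_K186R and 15.8% in Smn1OE. Of the 8 U6 and cytoplasmic LSm genes, 2 were called lower against Bap1KO in Smn1OE_K186R and 0 in Smn1OE, beside 16.5% and 17.7% of all genes.

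The direction of change went with transcript length among these genes. The longest annotated transcript ran from 494 bases for Lsm5 to 7442 bases for Prpf8, with medians of 899 bases for the U6 and cytoplasmic LSm genes, 1055 for the Sm ring genes and 3339 for the U4/U6 and U5 genes. Across the 49 genes, Spearman's rho of log2 fold change against transcript length was 0.684 in Bap1KO against WT, 0.578 in Smn1OE_K186R against Smn1OE, 0.626 in Smn1OE_K186R against Bap1KO and 0.561 in Smn1OE against Bap1KO. Over 13966 protein-coding genes the same measure was 0.081, 0.347, 0.29 and 0.175. These are descriptions across genes, which share libraries and are not independent replicates. In Smn1OE_K186R against Bap1KO, the 12 listed genes under 1 kb had a median of -0.21 and the 9 over 4.5 kb a median of 0.27, against -0.31 and 0.19 for all coding genes of those lengths. In Bap1KO against WT the same medians were -0.17 and 0.12 for the listed genes, against -0.05 and 0.04 for all coding genes. Role and length go together in this list, so they cannot be told apart from it alone.

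Removing the trend of all genes with length from each library, an alternative chosen after seeing the data, kept some calls and ended others. It did not remove the relation with length among the 49 genes. Spearman's rho was then 0.595 in Bap1KO against WT, where it had been 0.684. It was 0.174 in Smn1OE_K186R and 0.274 in Smn1OE against Bap1KO, and 0.432 and 0.461 against WT. In Smn1OE_K186R against Smn1OE it was -0.176. Rnpc3 against Bap1KO was then 0.93 in Smn1OE_K186R and 0.99 in Smn1OE, and all 9 calls of Smn1OE were kept, with 6 more added (Snrpb, Snrpa, Snrpc, Snrnp70, U2af1 and Zcrb1). In Smn1OE_K186R, 9 of the 12 calls were kept, 3 were lost (Lsm5, Snrnp25 and Sf3b3) and 4 were added (Snrnp70, U2af1, U2af2 and Zcrb1). The same fits called 30.8% of all genes in Smn1OE_K186R and 35.4% in Smn1OE. Prpf8 was then 0.27, Sf3b1 0.31, Lsm4 -0.25 and Zmat5 -0.29 in Smn1OE_K186R, each over 1.5 times closer to 0 than without the correction and still called. In Bap1KO against WT, Snrnp25 was -0.61 and still called, Lsm6 was not called, and Prmt5 (0.29) and Snrnp200 (0.23) were called higher. Against WT, 20 were called higher and 6 lower in Smn1OE_K186R, of which 16 were called without the correction, and 23 higher and 4 lower in Smn1OE, of which 18 were, beside 50.7% and 52.9% of all genes. Snrpf and Lsm3 lost their calls against WT in both groups, and Snrpd2 and Prpf4 in Smn1OE_K186R. The same correction left 0 calls in Smn1OE_K186R against Smn1OE, where it called 0 of all genes too.

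**Figure D5:**
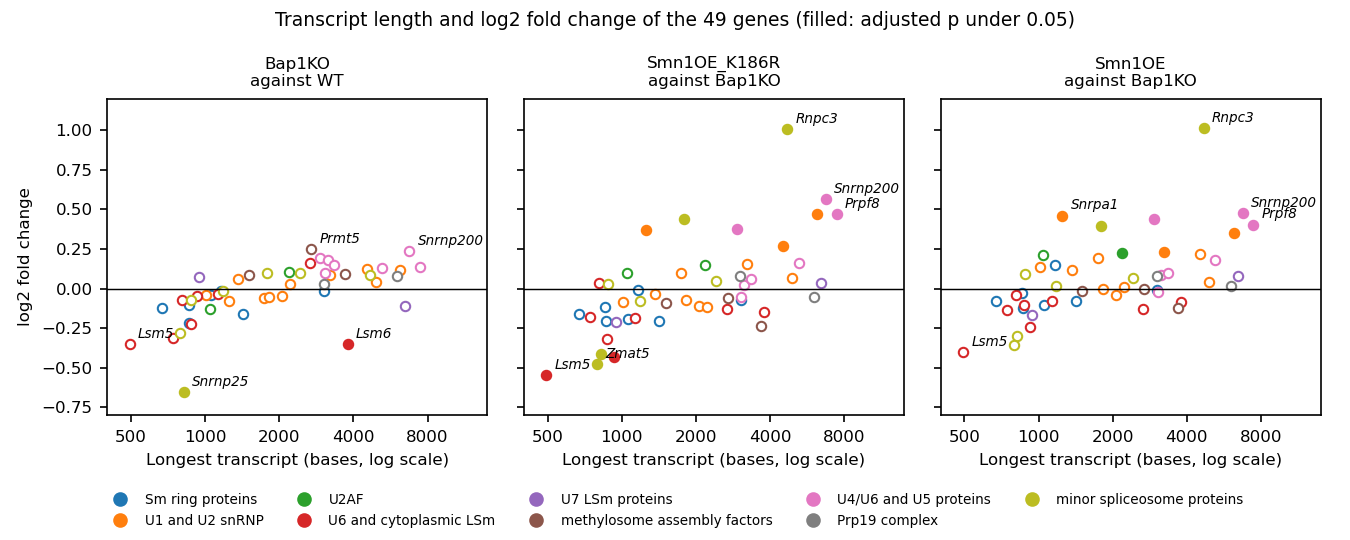
Log2 fold change of the 49 genes against the length of the longest annotated transcript (bases, log axis) in 3 comparisons, coloured by role, with filled points where the adjusted p was under 0.05. Points rise from left to right in each panel (Spearman's rho 0.684, 0.626 and 0.561), with Rnpc3 far above the others in the panels of the SMN vector groups and Snrnp25 lowest in Bap1KO against WT.

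A list of names gave 73 other tested genes of splicing and snRNP assembly. In Bap1KO against WT, edgeR called 0 of the 73, beside 9.72% of all genes. An unadjusted p under 0.05 was reached by 12 of them, beside 26.2% of all genes. In Smn1OE_K186R against Smn1OE, 0 of the 73 and 0 of all genes were called. There, 1 of the 73 had an unadjusted p under 0.05, beside 2.34% of all genes. DESeq2 called 4 and 0 of the 73 in these comparisons, beside 2560 and 0 of all genes. With media batch taken out of Bap1KO against WT, 7 were higher and 2 lower (12.3%, beside 29.0% of all genes), among them Tgs1, which trimethylates the snRNA cap (0.37, adjusted p = 0.00862), and Coil, the coilin of Cajal bodies (-0.31, adjusted p = 0.0208). Against Bap1KO, 16 were higher and 4 lower in Smn1OE_K186R and 17 higher and 3 lower in Smn1OE (27.4% in each, beside 32.6% and 33.5% of all genes). Dhx8, the helicase that releases spliced mRNA, had the smallest adjusted p in both (0.41 and 0.39). In Smn1OE_K186R the cap-binding gene Ncbp1 (0.27), the step factor Slu7 (0.31) and Isy1 (-0.46) were also among the smallest. In Smn1OE it was followed by the SF3B gene Sf3b4 (0.50), the helicase gene Dhx38 (0.44), Ncbp1 (0.29) and the U5 gene Txnl4a (0.64). Against WT, 29 were higher and 8 lower in Smn1OE_K186R and 29 higher and 6 lower in Smn1OE (50.7% and 47.9%, beside 50.5% and 50.4% of all genes), with Slu7 at 0.54 in both, Tgs1 at 0.78 and 0.72 and Ncbp1 at 0.42 and 0.43. Of the 13 SR protein genes, whose products bind exons, 1 was called against Bap1KO in Smn1OE_K186R, Srsf11 (0.37, named after its value was seen). In Smn1OE 0 were called, and 1 had an unadjusted p under 0.05, beside 44.7% of all genes.

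Some counts are uncertain because genes overlap. Wdr77, Sf3b3, Sf3a2, Snrpd3, Cdc5l and Snrpa each overlap a gene on the other strand that had 6819 (beside Snrpa) to 184710 (beside Wdr77) counts in all, and whether counting used strand was not given in the sources used here. Rnpc3 overlaps Amy1 on the same strand, and Amy1 had 632 counts over the 12 libraries. Reads with several alignments were kept out of the gene counts, so a gene with near-identical copies elsewhere in the genome may be undercounted.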

How the data were processed

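RNA was sequenced as paired-end TruSeq libraries on an Illumina HiSeq, per the labels, and the authors deposited whole-number counts of reads per Ensembl gene for each of the 12 libraries. Per the submitters' processing notes, which give tools without their order, build GRCm39 is named with the aligner STAR (2.6.1), the counter HTSeq (0.9.1), the trimmer cutadapt (1.4.2) and CASAVA (1.8.2), with DESeq2 also named. The annotation release and the strand setting were not given in the sources used here. The 5 closing rows of each count table (unassigned reads, 11.1 to 14.6% of all) were left out of library sizes. Symbols matched 55154 of 55335 gene identifiers. Of 74 other pathway symbols 73 matched; Cenatac did not.

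Genes were filtered with filterByExpr (minimum count 10), scaled by TMM and tested with edgeR 4.0.16's quasi-likelihood test (R 4.3.3) over all 12 libraries, and p-values were adjusted by Benjamini-Hochberg over 16597 genes. A gene is called at an adjusted p under 0.05. CPM are TMM-scaled, and RPKM divide CPM by exon-union length. The procedure was tested on simulated counts that held no media batch effect and no trend with length. That test therefore cannot show how the batch terms or the length correction handle such effects. Media batch came from the labels: libraries of the same batch deviated together (correlations 0.311, 0.435 and 0.24 for Bap1KO with WT, 0.384, 0.302 and 0.431 for Smn1OE_K186R with Smn1OE). A fixed batch term was therefore fitted within those comparisons. Across batches, batch was a random effect in limma 3.58.1, which cannot separate batch from group in those comparisons. Alternatives were RLE or total-count scaling, no filter, DESeq2 1.42.0, only the 2 groups compared, each library left out and, chosen after seeing the data, removal of the trend with transcript length (lowess span 0.4). Every gene of the list called with or without batch is named, and per-library values are given for those with the smallest adjusted p and for the largest change of each role in Bap1KO against WT. The members and lists were chosen with earlier results of these data known. Depth, 51198342 to 68216089 counts, leaves the spread between libraries as the main limit on precision; the median SE of a log2 fold change was 0.0966 to 0.0977.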

Additional observations from a re-analysis of the deposited data

How the results depend on the processing

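No called single-gene value changed sign. Of 918 alternative values of 70 single-gene results, 806 kept their side of the threshold, 93 lost a call and 19 gained one. In Bap1KO against WT the 2 calls among the 49 genes became 1 with RLE, total counts, no filter or only the 2 groups, 4 with DESeq2, 8 with media batch as replicate block and 14 with the block and the length trend removed, and 0 to 1 with a library left out. Over all genes the 1614 calls became 2560 with DESeq2, 4814 with the block and 5909 with the block and the length trend removed, and 535 to 1457 with a library left out. In Smn1OE_K186R against Smn1OE, 0 calls over all genes became 48 with the block and 69 with the block and the length trend removed. In Smn1OE against Bap1KO the 9 calls among the 49 became 14 with total counts, 15 with the length trend removed and 7 to 9 with a library left out. With only the 2 groups they became 13, 11 higher and 2 lower. Over all genes 5567 became 5044 with only the 2 groups and 3512 to 5627 with a library left out. The lowest was without Bap1KO replicate 1, and without Smn1OE replicate 3 it was 3524. In Smn1OE_K186R against Bap1KO the 12 became 7 with only the 2 groups and 9 to 11 with a library left out; over all genes 5416 became 3462 with only the 2 groups and 3385 (without Bap1KO replicate 1) to 5309 with a library left out. Against WT, leaving out a library gave 17 to 19 calls in Smn1OE and 18 to 22 in Smn1OE_K186R. With total counts, all-gene calls against WT split into 4807 higher and 3652 lower in Smn1OE_K186R (3978 and 4406 with TMM) and 4875 and 3745 in Smn1OE (3950 and 4420), and against Bap1KO into 3381 and 2078 (2670 and 2746) and 3499 and 2249 (2628 and 2939). The median log2 fold change of the 49 is close to 0 and its sign was not stable. In Bap1KO against WT (-0.013) it turned positive with RLE (0.0077), total counts (0.0029), DESeq2 (0.0086), only the 2 groups (0.0027), the length trend removed (0.0428, and 0.0433 with the block) and in 4 of the 6 fits with a library left out, namely Bap1KO replicate 1, Bap1KO replicate 3, WT replicate 1 and WT replicate 2 (0.0233 to 0.0475). In Smn1OE_K186R against Bap1KO (-0.055) it turned positive with total counts (0.0218), the length trend removed (0.0444) and without Smn1OE_K186R replicate 2 (0.0020). In Smn1OE_K186R against WT (-0.028) it did so with RLE (0.0061), total counts (0.0633), DESeq2 (0.0050), the length trend removed (0.1315) and without Smn1OE_K186R replicate 2 (0.0699) or WT replicate 1 (0.0010). In Smn1OE against Bap1KO (0.014) it turned negative without Bap1KO replicate 3 (-0.011) or Smn1OE replicate 3 (-0.0028). Total counts moved the median of all genes by at most 0.0979 (log2). Beyond fewer libraries in the fits that left some out, the cause of these shifts was not tested.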
